A study of Homo sapiens with 6 samples.

Results

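A set of 10 genes that mark fetal liver cells, liver progenitors or liver tumours, called the members here, was followed in HepG2 cells. HepG2 is a human cell line from a liver tumour that has kept many traits of fetal liver. The members were taken by gene symbol and are GPC3, CD24, PROM1, MDK, SPINK1, SOX4, SOX9, LIN28B, IGF2BP1 and IGF2BP3. AFP, the best known gene of this kind, was left out by the choice of members. All 10 were among the 19846 genes of the deposited count table, and all 10 passed the filter on low counts, which kept 15314 genes. RNA was sequenced from 3 samples of cells on 6-well plates in EMEM medium renewed every 2 days (2D), and from 3 samples of cells in a hollow fiber bioreactor with circulating EMEM and DMEM in equal parts, 10% fetal bovine serum, Penicillin-Streptomycin and GlutaMAX (3D). The bioreactor medium was recirculated at 23.5 mL per minute, with a feed of 2 mL per hour. The labels name no additive for the plate medium. Cells of both groups were at passages 7 to 9, and the labels name no genetic change in either. Culture form, medium and feeding differ together between the groups and cannot be told apart. Nothing in the labels tells if replicates are independent cultures. The p-values therefore rest on a spread that may be technical.

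Oncofetal genes are active in the fetal liver, are silenced as hepatocytes mature, and are often active again in liver tumours. Progenitor markers label cells of the developing liver or bile duct that can still become hepatocytes or duct cells. LIN28B is an RNA-binding protein that blocks the processing of let-7 microRNAs, and let-7 in turn represses LIN28B and many other fetal genes, so the pair forms a switch between a fetal and a mature state. The IGF2BP proteins bind fetal mRNAs, among them that of the growth factor IGF2, and keep them stable.

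Library totals ranged from 9530795 to 17943513 counts, with 3D replicate 1 the smallest. That library also lay apart from all others on the second principal component. On the plates the 14 hepatocyte markers summed to between 32983 and 37456 CPM (each library's counts as a rate of its TMM-scaled total, the usual CPM unit), and in the bioreactor to between 24238 and 40021 CPM. This sum holds opposite changes, since 4 of the 13 hepatocyte markers tested rose and 3 fell. APOB, its largest part in 2D, averaged 17756 CPM there and 6631 CPM in 3D. Endothelial markers summed to at most 5.49 CPM in any library. Of 6 fibroblast markers PDGFRB and ACTA2 were analysed here. Both fell (3.27-fold and 1.45-fold), the ACTA2 call being lost without 2D replicate 1 (edgeR adjusted p = 0.0594), and their sum was between 35.0 and 42.9 CPM in 2D and between 19.3 and 25.8 CPM in 3D. LYZ made up most of the sum over blood cell markers, which was between 980.0 and 1476 CPM in 2D and between 437 and 1015 CPM in 3D. CD68, a lysosomal marker of macrophages, rose 4.21-fold to 32.0 ± 9.52 CPM (SD, n = 3), and PTPRC was not analysed here. A list of 15 DNA replication genes summed to between 577 and 1137 CPM in 2D and between 2022 and 2343 CPM in 3D. Of these 15 genes 14 rose, among them TK1 (5.45-fold) and UHRF1 (4.13-fold). The part of these differences in the results on the members was not tested. In bulk RNA, fewer cells of a type and less RNA per cell cannot be told apart.

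The members did not change as a block. SPINK1, CD24, SOX4 and MDK rose in 3D, PROM1, IGF2BP3, SOX9 and GPC3 fell, and LIN28B and IGF2BP1 did not pass the test. That is 4 of 10 called higher, where 19.0% of all tested genes were, and 4 of 10 called lower, where 17.6% were. Each call is an adjusted p under 0.05 in edgeR's quasi-likelihood test. In either direction 8 of 10 were called, against 36.6% of all genes and 42.0% of genes at 5 CPM or more. Members were chosen with earlier results of these data known, so these shares are not an independent test. The members' median log2 fold change (3D over 2D) was −0.21, and that of all tested genes 0.02. The 2D and 3D libraries did not overlap for the same 8 members, 4 in each direction, where 50.5% of all tested genes showed no overlap (25.6% with 3D above and 24.9% with 3D below). With each library corrected for transcript length and GC content, 3 members were called higher and 3 lower, against 19.1% and 14.6% of all genes, and their median was 0.08 against 0.03. Without 3D replicate 1 the numbers were 4 higher and 3 lower, where 2817 and 2792 of 15630 genes were. Without 2D replicate 3 they were 4 and 2, where 2282 and 2063 of 15799 genes were. With all libraries 2910 of 15314 genes were higher and 2697 lower.

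**Figure D1:**
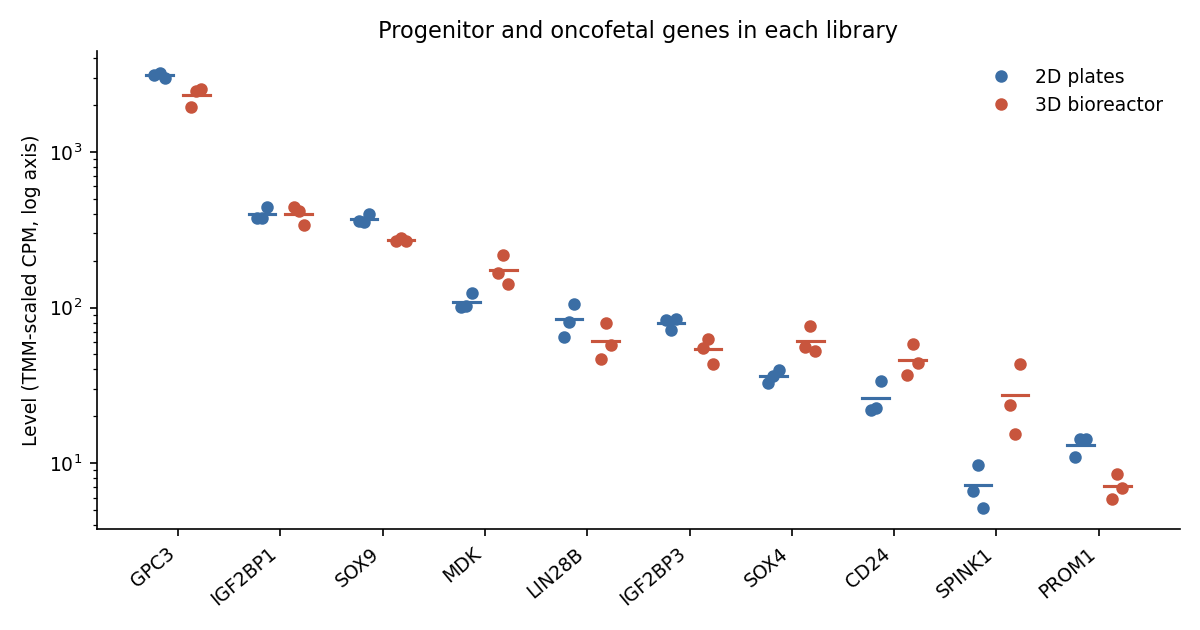
Level of each member in each library, in TMM-scaled CPM on a log axis. Points are libraries (blue, 2D plates; red, 3D bioreactor; 3 each) and bars are group means. The groups are separate for 8 members and overlap for LIN28B and IGF2BP1.

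Of the 3 surface proteins, 1 rose and 2 fell. GPC3 (chrX:133535745-133985896, minus strand, hg38) encodes glypican-3, a heparan sulfate proteoglycan anchored to the outer membrane that is a target in liver cancer. It stood at 3114, 3243 and 2977 CPM in 2D replicates 1 to 3, and at 1939.9, 2463 and 2543 CPM in 3D replicates 1 to 3. Every 3D library was below every 2D library, with 3D replicate 1 the lowest. The log2 fold change was −0.43 (SE 0.15, edgeR adjusted p = 0.0458), a level 1.34-fold lower in 3D. This call stands close to the threshold. It was lost without any 1 of 2D replicates 1, 2 and 3 and 3D replicates 1 and 2 (edgeR adjusted p = 0.126, 0.130, 0.0728, 0.0702 and 0.0661), while the log2 fold change stayed between −0.51 and −0.30 in all 17 alternatives.

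PROM1 (chr4:15963076-16084379, minus strand) encodes prominin-1, known as CD133, a protein of membrane protrusions and a marker of stem and tumour-initiating cells. It was at 10.9, 14.2 and 14.2 CPM in the 2D libraries and at 5.85, 8.53 and 6.89 CPM in the 3D libraries. All 3D values lay below all 2D values. The level fell 1.83-fold (log2 −0.87, SE 0.20, edgeR adjusted p = 0.00581), the largest fall among the members. The lowest library, 3D replicate 1, rests on 59 counts, with a 95% Poisson interval of 4.45 to 7.55 CPM, which covers counting error only. The highest 3D library, replicate 2, and the lowest 2D library, replicate 1, had overlapping intervals (7.14 to 10.1 and 9.33 to 12.6 CPM). CD24 (chr6:106969831-106975628, minus strand) is a small, heavily glycosylated surface protein of progenitor and tumour cells. Its levels were 21.8, 22.7 and 33.8 CPM in 2D and 37.0, 58.0 and 43.8 CPM in 3D. The groups did not overlap, but the highest 2D library, replicate 3, and the lowest 3D library, replicate 1, had 95% Poisson intervals that did (31.2 to 36.6 and 33.3 to 40.9 CPM). CD24 rose 1.78-fold (log2 0.83, SE 0.21, edgeR adjusted p = 0.0105). Its transcript has near-identical processed copies elsewhere in the genome, so its counts are uncertain as far as the counting could split reads among them. Of such copies CD24P1, CD24P2, CD24P3, CD24P4 and CD24B were looked for, and none was among the genes of the count table.

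Both secreted members rose. SPINK1 (chr5:147824568-147831787, minus strand) encodes a small trypsin inhibitor of the pancreas that liver tumours also secrete. It was at 6.64, 9.76 and 5.16 CPM in 2D and at 23.6, 15.3 and 43.4 CPM in 3D. No library of one group reached the range of the other, and the 3D libraries were spread widely, with a coefficient of variation of 52.7% against 2.96% for SOX9. SPINK1 rose 3.83-fold (log2 1.94, SE 0.39, 95% interval 1.04 to 2.84, edgeR adjusted p = 0.00614), the largest change of all members. Without 3D replicate 3, the highest library, the log2 fold change was 1.42. MDK (chr11:46380756-46383838, plus strand) encodes midkine, a heparin-binding growth factor of the embryo. It was at 101, 102 and 124 CPM in 2D and at 166, 216 and 142 CPM in 3D. The groups did not overlap, and MDK rose 1.60-fold (log2 0.68, SE 0.16, edgeR adjusted p = 0.00725).

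The MDK call was lost under a joint correction for transcript length and GC content. Its transcript has 1166 nt and 63.1% GC. That length puts it in the shortest of 10 equal length groups of protein-coding genes, whose median log2 fold change was 0.41 and of which 42.3% were called higher. With each library corrected for length and GC content, the log2 fold change of MDK was 0.24 (edgeR adjusted p = 0.425). SPINK1, with 1188 nt, lies in the same group and had a log2 fold change of 1.86 after the correction (edgeR adjusted p = 0.0127).

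**Figure D2:**
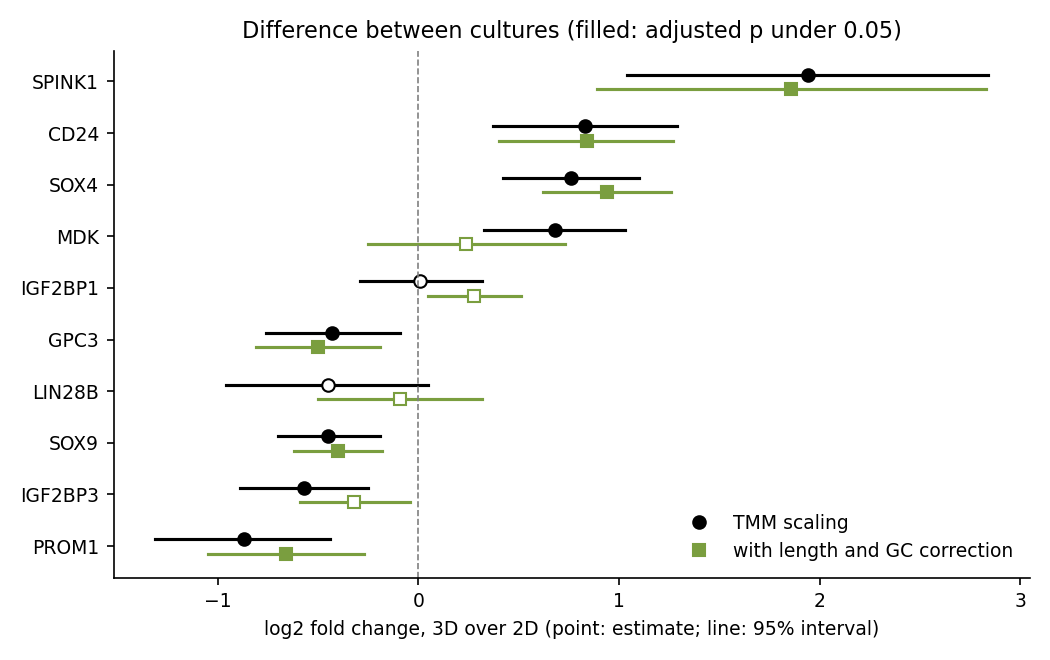
Log2 fold change of each member, 3D over 2D, with its 95% interval, under TMM scaling (black) and with each library also corrected for transcript length and GC content (green). Filled symbols have an adjusted p under 0.05. MDK and IGF2BP3 were called only without the correction, and no member changed sign.

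The SOX transcription factors moved in opposite directions. SOX4 (chr6:21592768-21598620, plus strand), a factor of progenitors and of many tumours, was at 32.5, 36.5 and 39.7 CPM in 2D and at 55.8, 75.5 and 52.7 CPM in 3D. The 3D libraries were all above the 2D libraries, and SOX4 rose 1.69-fold (log2 0.76, SE 0.16, edgeR adjusted p = 0.00333). Its transcript of 5852 nt lies in the ninth of the 10 length groups, whose median log2 fold change was −0.27 and where 8.48% of genes were called higher. After the length and GC correction the log2 fold change of SOX4 was 0.94. SOX9 (chr17:72121020-72126421, plus strand), a factor of bile duct cells and liver progenitors, was at 359, 354 and 397 CPM in 2D and at 266, 281 and 267 CPM in 3D. Its 3D libraries were the most alike of any member, and all lay below 2D. SOX9 fell 1.36-fold (log2 −0.45, SE 0.12, edgeR adjusted p = 0.0117), and the call was lost without 2D replicate 3 (log2 −0.40, edgeR adjusted p = 0.0528). SOX9-AS1 on the opposite strand shares no exon base with the SOX9 transcript used here and stood at no more than 1.55 CPM.

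Of 7 other SOX genes tested, 1 rose and 2 fell. SOX8, which belongs with SOX9 to the SOXE group, fell from 6.80 ± 2.05 to 1.31 ± 0.273 CPM (SD, n = 3 per group; log2 −2.35, edgeR adjusted p = 0.000313). SOX12, of the same SOXC group as SOX4, averaged 198 ± 15.8 CPM on plates and 229 ± 15.7 CPM in the bioreactor and did not pass (log2 0.21, edgeR adjusted p = 0.189). SOX6, a factor of the SOXD group, fell 3.52-fold, and SOX18, known from vessel development, rose 2.57-fold. SOX10 and SOX11 were not analysed here.

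The RNA-binding members fell or did not pass the test. LIN28B (chr6:104936616-105083333, plus strand) was at 64.2, 81.2 and 106 CPM in 2D and at 46.4, 79.5 and 57.3 CPM in 3D. The ranges overlap, since 3D replicate 2 was above 2D replicate 1. The log2 fold change was −0.45 (SE 0.22, 95% interval −0.96 to 0.05, edgeR adjusted p = 0.140). Without 3D replicate 2 it was −0.69 and passed (edgeR adjusted p = 0.0327), and after the length and GC correction it was −0.09 (edgeR adjusted p = 0.738). LIN28A, its paralog, was not analysed here. LIN28B-AS1 on the opposite strand was too low to test and shares no exon base with the transcript used.

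IGF2BP1 (chr17:48997412-49055651, plus strand) was at 375, 378 and 440.2 CPM in 2D and at 446, 419 and 341 CPM in 3D. The groups overlap throughout, and 3D replicate 3 was the lowest of all libraries and 3D replicate 1 the highest. Its log2 fold change was 0.01 with a 95% interval of −0.29 to 0.32 (edgeR adjusted p = 0.950), which is an interval that leaves room for changes of that size in either direction. The sign turned to −0.08 without 3D replicate 1, and after the length and GC correction the value was 0.28 (edgeR adjusted p = 0.0602). IGF2BP3 (chr7:23310209-23470468, minus strand) was at 83.1, 71.8 and 84.9 CPM in 2D and at 55.2, 62.7 and 43.5 CPM in 3D. All 3D libraries lay below all 2D libraries, and IGF2BP3 fell 1.48-fold (log2 −0.57, SE 0.15, edgeR adjusted p = 0.0111). After the length and GC correction its log2 fold change was −0.32 (edgeR adjusted p = 0.0720).

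A neighbour, named here for its overlap, bears on the value of IGF2BP3. MALSU1, a mitochondrial ribosome assembly factor, lies on the opposite strand, and 1521 of the 4250 nt of the IGF2BP3 transcript (35.8%) are exon of MALSU1 too. Reads from that stretch cannot be told apart because the handling of strand is not given. MALSU1 averaged 41.7 ± 0.574 CPM on plates and rose to 72.2 ± 6.63 CPM (SD, n = 3 per group; log2 0.79, edgeR adjusted p = 0.000574). IGF2BP2, the paralog that stays active in many adult tissues, fell with little spread, from 196 ± 8.61 to 139 ± 3.50 CPM (SD, n = 3 per group; log2 −0.50, SE 0.11, edgeR adjusted p = 0.00483), and was still lower after the length and GC correction (log2 −0.43, edgeR adjusted p = 0.00486).

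The choice of fetal genes as members was not independent of let-7, which represses LIN28B and many other fetal genes. The RNA-binding members share a sequence feature, a match to let-7. It is shown here with the let-7a microRNA, whose seed (bases 2 to 8) is in capitals, and with stretches of 30 bases from the 3′ untranslated regions, the 4 of LIN28B and the first of each IGF2BP gene, where capitals mark the match to that seed. The microRNA is from RefSeq (GRCh38.p14) and the sites are from GENCODE release 29 transcripts (hg38), given 5′ to 3′ on the transcribed strand.
let-7a: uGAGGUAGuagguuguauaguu
IGF2BP1, chr17:49051064-49051093, plus strand: gtgcgaagtaaaCTACCTCaaggtatgaag
IGF2BP3, chr7:23311785-23311814, minus strand: atttttactcaaCTACCTCaggtattcagt
LIN28B, chr6:105078815-105078844, plus strand: cggttgcaaagtCTACCTCatgcaagtata
LIN28B, chr6:105081242-105081271, plus strand: tgatgatagtaaCTACCTCtgagtttgaca
LIN28B, chr6:105081424-105081453, plus strand: tacagcaaaaggCTACCTCatagttgatac
LIN28B, chr6:105082863-105082892, plus strand: tgatggtgttgaCTACCTCttgaatcacat
All 9 let-7 family members in the table of microRNAs carry the seed GAGGUAG. The 7-base match CTACCTC, searched on the transcribed strand only, occurred 4 times in the 3′ untranslated region of LIN28B (4549 nt), 4 times in that of IGF2BP1 (6206 nt) and 1 time in that of IGF2BP3 (2153 nt). The other 7 members had 0. Of 13706 protein-coding genes with a 3′ untranslated region, 10.7% had at least 1 match and 0.219% had 3 or more. The median region of those genes was 1223 nt, shorter than the regions of LIN28B, IGF2BP1 and IGF2BP3, so these shares do not compare like lengths. The part of length in the number of matches was not tested. MicroRNAs were not measured, and a match is not a shown target site.

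Among tested protein-coding genes with a 3′ untranslated region on record, the median log2 fold change was 0.03 for 10893 genes with 0 matches, −0.13 for 1166 genes with 1 and −0.28 for 157 genes with 2 or more. After the joint length and GC correction, neither part of which was applied alone, the medians were 0.04, 0.04 and 0.06. The median 3′ untranslated region was 1123 nt long with 0 matches and 4972 nt with 2 or more, and its part in these values was not tested.

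**Figure D3:**
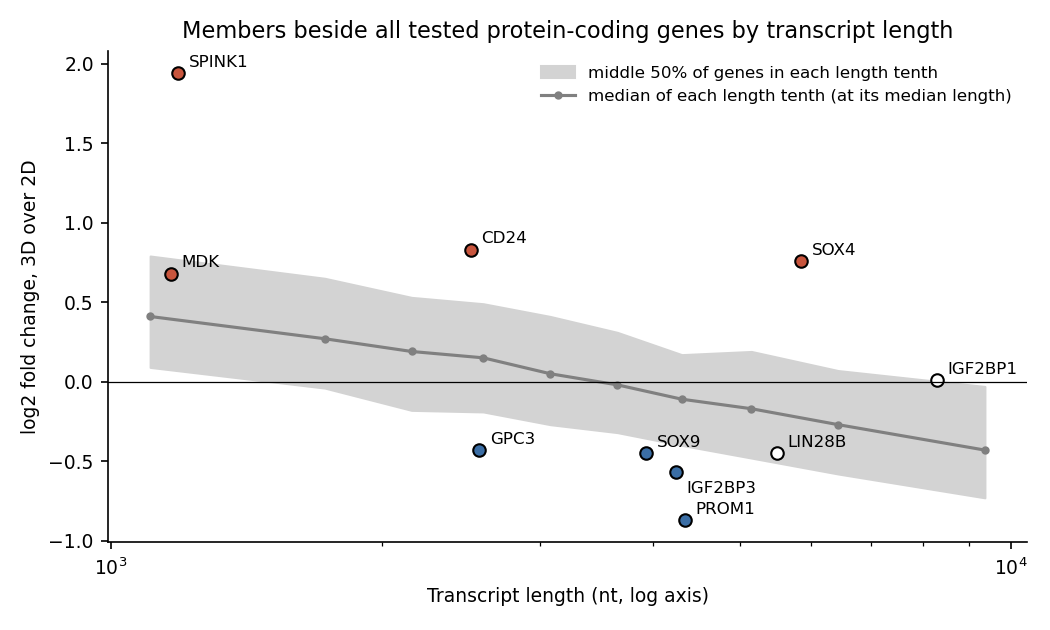
Log2 fold change (3D over 2D) of the members against transcript length on a log axis, with the median and the middle 50% of protein-coding genes in each of 10 equal length groups in grey. Red members were called higher, blue lower and white not called. SPINK1, CD24 and SOX4 lie above the grey band and PROM1, GPC3, SOX9 and IGF2BP3 below it, while MDK and LIN28B lie within it and IGF2BP1 lies at its upper edge.

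Per kilobase of transcript, GPC3 was the most abundant member in both cultures, at a mean of 1212 CPM per kb in 2D and 902 in 3D. In 2D, SOX9 (94.0 CPM per kb) and MDK (93.5) followed with overlapping libraries, then IGF2BP1 (48.1), IGF2BP3 (18.8), LIN28B (15.2) and CD24 (10.4). Each of the last 3 overlapped its neighbour in this order. SOX4 (6.19) and SPINK1 (6.05) overlapped too, and PROM1 was lowest, at 3.01 CPM per kb. In 3D the level of MDK (149.6 CPM per kb) was above that of SOX9 (69.0) in every library. SPINK1 came after IGF2BP1 (48.6) at 23.1 CPM per kb. Its libraries, from 12.9 to 36.6, overlapped those of CD24 (18.4), IGF2BP3 (12.7) and LIN28B (11.1), and met those of SOX4, which reached 12.9. CD24, from 14.7, overlapped IGF2BP3, which reached 14.8. IGF2BP3, LIN28B and SOX4 (10.5) overlapped each other, and PROM1 was again lowest (1.63).

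**Figure D4:**
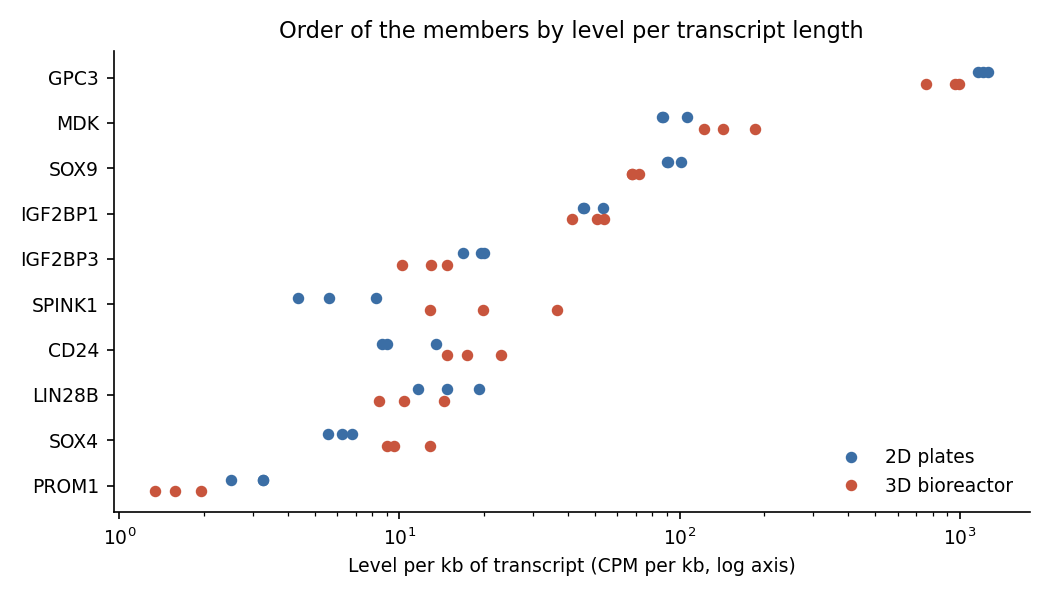
Level of each member per kb of transcript in each library (CPM per kb, log axis), blue for 2D plates and red for 3D bioreactor, ordered by the mean over both groups. GPC3 is highest and PROM1 lowest in both, and SPINK1 moves from among the lowest in 2D to the middle in 3D.

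Other progenitor markers changed in both directions as well. Of 31 listed, 27 were in the table and 23 were tested, with 7 higher and 11 lower, and the median log2 fold change was −0.38. CDH1, the epithelial adhesion protein, rose 8.59-fold and POU5F1, a pluripotency factor with many copies in the genome, 3.37-fold at a low level (6.25 CPM in 3D). ONECUT2, a factor of the fetal liver, fell 2.92-fold and ABCG2, an exporter used to mark stem-like cells, 1.97-fold. KRT7, a duct keratin, was too low to test. KIT, NANOG, NCAM1 and SOX2 were not analysed here.

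Of 14 other oncofetal genes tested, 6 rose and 4 fell (median log2 fold change 0.11). After the length and GC correction 7 rose and 1 fell, with a median of 0.32. PKM, whose M2 form is the pyruvate kinase of fetal tissue and tumours, rose 2.75-fold and IGF2, the fetal growth factor bound by IGF2BP proteins, rose 2.74-fold to 17898 ± 3015 CPM (SD, n = 3). S100P, a calcium-binding protein, fell 1.99-fold, a call lost without 2D replicate 1 (edgeR adjusted p = 0.0518). PEG3, an imprinted zinc finger gene, fell 1.59-fold and was not called after the length and GC correction (edgeR adjusted p = 0.152). Without 2D replicate 1 the number of oncofetal genes that fell was 2. AFP itself averaged 6840.3 ± 1181 CPM on plates and 9409.5 ± 1787 CPM in the bioreactor (log2 0.46, edgeR adjusted p = 0.0852). It was called higher with DESeq2 (adjusted p = 0.0319), after the length and GC correction (log2 0.56, edgeR adjusted p = 0.0289) and without 3D replicate 1 (log2 0.60, edgeR adjusted p = 0.0183).

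LIN28 partners, small RNA processing genes and known let-7 targets fell in 12 of 29 tested cases and rose in 5 (median log2 fold change −0.31). ZCCHC6, a terminal uridylyl transferase that acts on let-7 precursors, and IGF1R, the receptor for insulin-like growth factors, fell 1.83-fold each. E2F2 and CCND2, which act in the cell cycle, rose 3.86-fold and 3.84-fold. After the length and GC correction 8 genes of the list rose and 9 fell, with a median of −0.07.

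Of 21 IGF2BP partners, bound mRNAs and m6A enzymes tested, 4 rose and 3 fell (median log2 fold change −0.05), and 9 rose and 2 fell after the length and GC correction. ACTB, whose mRNA is a classic target of IGF2BP1, rose 2.27-fold, while MYC, also bound by IGF2BP proteins, fell 1.67-fold, from 297 ± 2.72 to 178 ± 44.6 CPM (SD, n = 3 per group). YTHDF3, a reader of m6A, fell 1.42-fold (edgeR adjusted p = 0.0418), a call lost in 5 of the 6 runs that leave out 1 library and after the length and GC correction.

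Around GPC3, 2 of 23 tested genes for glypicans, syndecans, heparan sulfate enzymes and GPC3 partners rose and 6 fell (median log2 fold change −0.23). FURIN, the protease that cuts GPC3, rose 2.09-fold and SDC1, another heparan sulfate proteoglycan, 1.80-fold. EXT1, which builds heparan sulfate chains, fell 1.71-fold, and PTCH1, the hedgehog receptor, 1.63-fold. The PTCH1 call was lost after the length and GC correction (edgeR adjusted p = 0.0716), and without 2D replicate 1 or 3D replicate 3 (edgeR adjusted p = 0.0836 and 0.0551). Among the other glypicans, GPC6 fell (log2 −0.61, edgeR adjusted p = 0.0145, and −0.24 with an adjusted p = 0.161 after the length and GC correction) and GPC1 did not pass (16.2 ± 3.17 CPM on plates, 20.8 ± 5.22 CPM in the bioreactor, edgeR adjusted p = 0.203). The GPC6 call was also lost without 2D replicate 3 or 3D replicate 3 (edgeR adjusted p = 0.0546 and 0.0559). GPC2 averaged 1.59 ± 0.438 CPM on plates and 1.65 ± 0.585 CPM in the bioreactor (SD, n = 3 per group), GPC4 was too low to test and GPC5 was not analysed here.

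Of 10 midkine receptors and related genes tested, 1 rose (SDC1) and 4 fell (median log2 fold change −0.32), and 2 rose and 2 fell after the length and GC correction. Without 3D replicate 1, 2 rose. ITGB1, an integrin chain, fell 1.86-fold, and LRP6, a Wnt co-receptor, 1.67-fold (edgeR adjusted p = 0.0711 after the length and GC correction). PTN, the homologue of midkine, was not analysed here. Of the other SPINK genes listed, SPINK4 and SPINK5 were too low to test and the rest were not analysed here. EGFR, to which SPINK1 can bind, fell 1.48-fold and was not called after the length and GC correction (edgeR adjusted p = 0.152). Mature hepatocyte markers, tested for comparison, rose in 4 of 13 cases and fell in 3 (median log2 fold change 0.08). ARG1, an enzyme of the urea cycle, rose 4.97-fold at a low level and G6PC, the glucose-6-phosphatase of gluconeogenesis, 4.36-fold. TAT, the tyrosine aminotransferase of adult liver, fell 3.90-fold, and APOB, the protein of low-density lipoprotein, 2.68-fold.

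**Figure D5:**
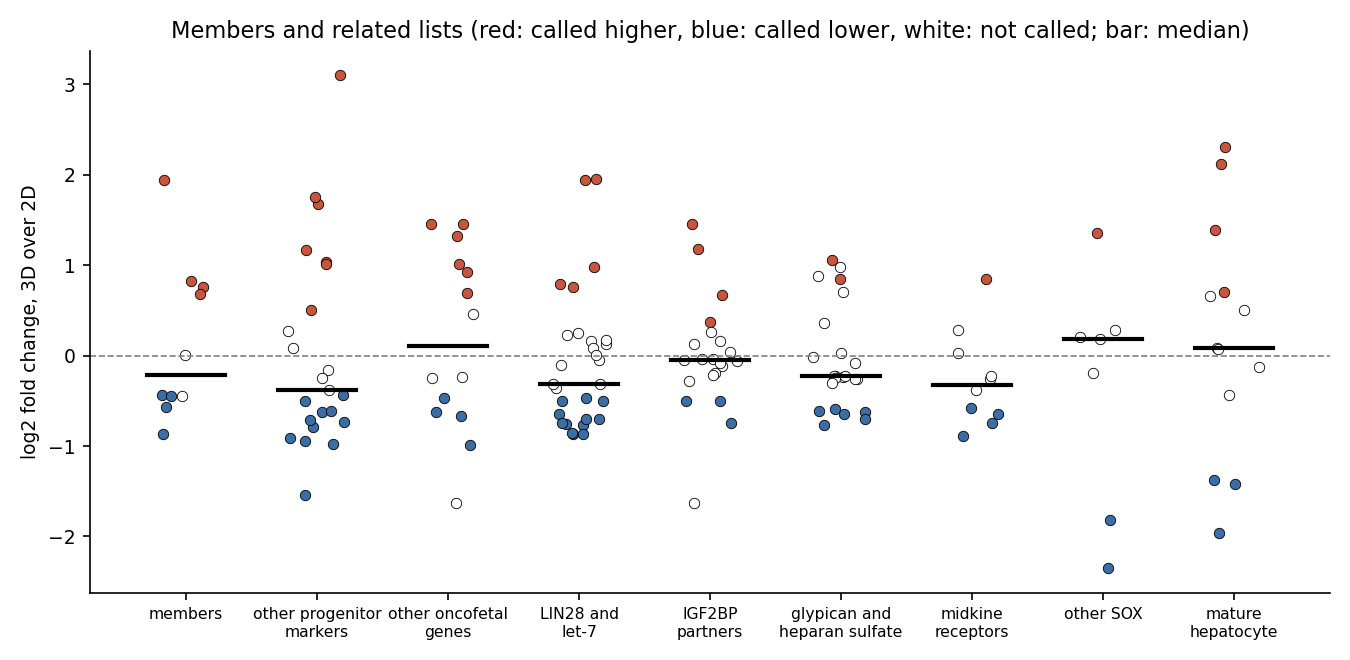
Log2 fold change (3D over 2D) of each tested gene in the members and in 8 related lists. Red points were called higher, blue lower and white not called in edgeR (adjusted p under 0.05), and bars are medians. Members and lists all hold genes on both sides of 0, with list medians between −0.38 and 0.18.

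For each member the gene with the most similar profile was sought among 14676 genes whose mean was 1 CPM or more in at least 1 group. The measure was the smallest Euclidean distance between profiles of log2 (CPM + 1) over the 6 libraries, each centred on its own mean. The added 1 CPM shrinks differences at low levels, so a near profile need not mean the same fold change. With this many genes to choose from, a close profile is to be found for nearly any pattern. GPC3 was closest to CBLL1 (distance 0.05), SOX9 to ZRANB3 (0.05), IGF2BP1 to FAM168A (0.04) and IGF2BP3 to ATAD2B (0.08). PROM1 was closest to ANKRD50 (0.11), MDK to PNPLA3 (0.11), SOX4 to PNP (0.13), CD24 to FAM151A (0.15) and LIN28B to RP11-70L8.4 (0.21). The last 2 neighbours stood at low levels and had larger log2 fold changes than their members. FAM151A ranged from 0.563 to 2.97 CPM (log2 1.35), and RP11-70L8.4 from 0.595 to 2.39 CPM (log2 −0.81). SPINK1 had the least similar nearest gene, CTD-2369P2.12, at a distance of 0.55. That gene was at 7.76, 8.73 and 4.05 CPM in 2D and at 20.2, 19.6 and 41.2 CPM in 3D, so it too was highest in 3D replicate 3.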

How the data were processed

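Gene expression was measured by RNA sequencing in 3 samples of HepG2 cells on plates and 3 in a bioreactor. The authors deposited 1 table of estimated counts per gene, not scaled to a common total. The tools named are STAR 2.4.1d and Partek and the build is hg38, per the submitters' processing notes. The annotation, counting settings, filters and strand setting were not given in the sources used here. Of genes matched to GENCODE release 29, 95.5% had the same start, and a deposited stop that lies 1 base past GENCODE's last base. Gene stops are printed as deposited, so they may lie 1 base too far. Counts were rounded to whole numbers, which moved no library total by more than 25 counts. Totals are given in the results.

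Differences were tested with edgeR 4.0.16 (R 4.3.3), on TMM-scaled libraries after filterByExpr, in a robust quasi-likelihood fit on culture alone. P-values were adjusted over 15314 genes (Benjamini-Hochberg). The standard error was derived from the F statistic. Length and GC content are those of the longest GENCODE basic transcript, known for 89.7% of tested genes, and were corrected by loess (span 0.5) per library. Alternatives were DESeq2 1.42.0, limma-voom (limma 3.58.1), other filters and scalings, a replicate block, and runs without single or 2 doubted libraries. No replicates of a group agreed within sampling noise. The scripts were tested on simulated data. Members and lists were chosen with earlier results of these data known. Named are all members, their tested paralogs, AFP, up to 2 called genes per direction and list at 1 CPM or more, and the gene of nearest profile. MicroRNA sequences are from RefSeq.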

Additional observations from a re-analysis of the deposited data

How the results depend on the processing

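Of 60 genes named by the rule, 35 kept their direction and their call in all 17 alternatives. Under every alternative SOX4, CD24 and PROM1 kept theirs. The number of members higher in 3D was 3 or 4, and lower 2 to 4 without single libraries. All genes higher numbered 1938 to 2817 without single libraries, against 2910 with all. All genes lower numbered 1828 to 2792, against 2697 with all. With length and GC content corrected, 8 let-7 list genes, 9 IGF2BP list genes and 2 midkine list genes were higher, and 1 oncofetal, 2 midkine and 0 SPINK list genes lower. With the replicate block added to that correction, 8 IGF2BP list genes were higher, and 1 oncofetal, 2 midkine and 0 SPINK list genes lower. Without single libraries, oncofetal genes lower numbered 2 to 4 and midkine list genes higher 1 to 2.

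Values near 0 turned sign. IGF2BP1 was at −0.01 with no filter, −0.12 without 2D replicate 2 and 3D replicate 1 together, and between −0.08 and 0.11 without single libraries. FAM168A was at −0.00 with no filter, −0.10 without both these libraries, and between −0.06 and 0.11 without single libraries. GPC2 was at −0.00 with limma-voom, −0.22 with length and GC content corrected, −0.22 with the replicate block too, −0.24 without both these libraries, and between −0.26 and 0.24 without single libraries. The causes were not tested.

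Same-numbered libraries had correlations of deviations from their group means of 0.053, −0.00924 and −0.0783. With 3 libraries per group these values cannot show whether the samples were paired. With the replicate block 3 members were higher and 4 lower, GPC3 and SPINK1 lost their calls (edgeR adjusted p = 0.0989 and 0.0630) and LIN28B gained one (0.0383), and 2747 genes were higher and 2611 lower. With upper-quartile scaling GPC3 had an edgeR adjusted p = 0.0505. Without 2D replicate 2 and 3D replicate 1 together it had 0.176. In that run 4 members were higher and 3 lower, where 2177 and 2052 of 15350 genes were. No shift of the median of all genes between scalings exceeded 0.1. The smallest counts behind a member were 59, for PROM1 in 3D replicate 1.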
